A study of Bos taurus with 6 samples.

Results

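The mRNA levels of 10 glycolytic enzyme genes, HK1, HK2, PFKL, PFKP, ALDOA, ALDOC, ENO1, ENO2, PKM and LDHA, were read from RNA-seq of bovine rumen epithelial primary cells (REPC). The genes were taken by symbol, from a choice made with earlier results of these data known. Each was found once in every sample among 32183 gene rows. The measurements came from 6 cultures, 3 kept for 24 h with 5 mM butyrate, the short-chain fatty acid that rumen microbes make from feed, and 3 controls without it. All cultures came from 1 Holstein bull calf, aged 2 weeks and given milk replacer alone, so a p-value here measures the spread between cultures of 1 animal. No transgene, deletion or other treatment was named for either group.

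Glycolysis is the cytosolic route that turns glucose into pyruvate with a net yield of ATP and NADH, and lactate dehydrogenase then returns the NADH to NAD+ by making lactate. Most of its steps can be run by several isozymes, which are separate genes for the same reaction that differ in tissue distribution and regulation. Rumen epithelium oxidises butyrate as a fuel, and butyrate also inhibits histone deacetylases. The 10 genes cover the glucose phosphorylation, phosphofructokinase, aldolase, enolase, pyruvate kinase and lactate dehydrogenase steps, with a pair of isozymes at 4 of them: HK1 and HK2, PFKL and PFKP, ALDOA and ALDOC, and ENO1 and ENO2.

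Levels are FPKM, fragments scaled for transcript length and for the mapped fragments of the library, so they can be compared between genes. No read counts were used, so the depth behind each value is unknown. The 95% interval that the quantification software gave each value spanned from ±4.13% of the level for PKM to ±19.7% for ENO2, as the median over the 6 cultures. Changes were tested with limma, a linear model with variances moderated over all genes. It was fitted on log2(FPKM + 0.1) to the 15813 genes whose mean reached 0.1 FPKM. Log2 fold changes are butyrate minus control on that scale, which understates the change of low genes, and a gene is called at a Benjamini-Hochberg adjusted p under 0.05. Positions are on the UMD3.1 cattle assembly.

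The epithelial markers KRT5 and KRT8 stood at 365.6 to 421.7 FPKM and 1309 to 1416 FPKM in the controls, whereas EPCAM stood at 0.41 to 0.74 FPKM. The fibroblast collagen gene COL1A1 stood at 1109 to 1173 FPKM in the controls and at 1816 to 2014 FPKM after butyrate. The collagen genes COL1A1, COL1A2 and COL3A1 made up nearly all of the fibroblast marker sum, while PDGFRA, PDGFRB, LUM and FAP had control means of 0.306, 0.0203, 0.149 and 0.015 FPKM. Of the 9 fibroblast markers 7 were tested, and 7 were called higher and 0 lower after butyrate. Of the 10 epithelial markers, all tested, 7 were called higher and 1 lower. Among all tested genes 32.5% were called higher and 25.9% lower. The immune marker PTPRC was 1 of 3 immune markers listed at 0 in all cultures. Of the 3 immune markers tested, 2 were called higher and 0 lower. Of the 2 endothelial markers tested, 2 were called higher and 0 lower. The summed FPKM of the marker lists moved with the treatment, from 2432 to 2539 in controls to 5083 to 5183 after butyrate for 10 epithelial markers, and from 1924 to 1982 to 2790 to 3038 for 9 fibroblast markers. The 7 immune markers summed to 6.59 to 7.89 FPKM and then 12.2 to 14.1 FPKM, and the 5 endothelial markers to 1.97 to 2.16 FPKM and then 6.48 to 8.43 FPKM. The part of these markers in the enzyme values was not tested. In such bulk RNA, fewer cells of a type and less RNA per cell cannot be told apart.

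Of the 10 enzymes, ALDOC and ENO2, the less abundant gene of their pairs, rose after butyrate, while HK2, PFKL, ALDOA, ENO1, PKM and LDHA fell, and HK1 and PFKP were not called. This gave 2 calls higher and 6 lower, against 32.5% of all tested genes called higher, 25.9% called lower and 58.4% called in either direction. All 3 butyrate values lay above all 3 control values for 2 enzymes, and below them for 6, against 36.1% and 28.9% of all tested genes, or 65.0% without overlap in either direction. In these 8 genes the intervals of the software also did not overlap between the groups, but the share of all tested genes with such separate intervals was not computed. The median log2 fold change of the 10 enzymes was -0.27, against 0.10 for all tested genes. A stricter rule, a Bonferroni-adjusted p under 0.05 with a log2 fold change beyond 2, called ALDOC and ENO2 higher and 0 enzymes lower, against 2.46% of tested genes higher, 1.51% lower and 3.97% either way.

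**Figure D1:**
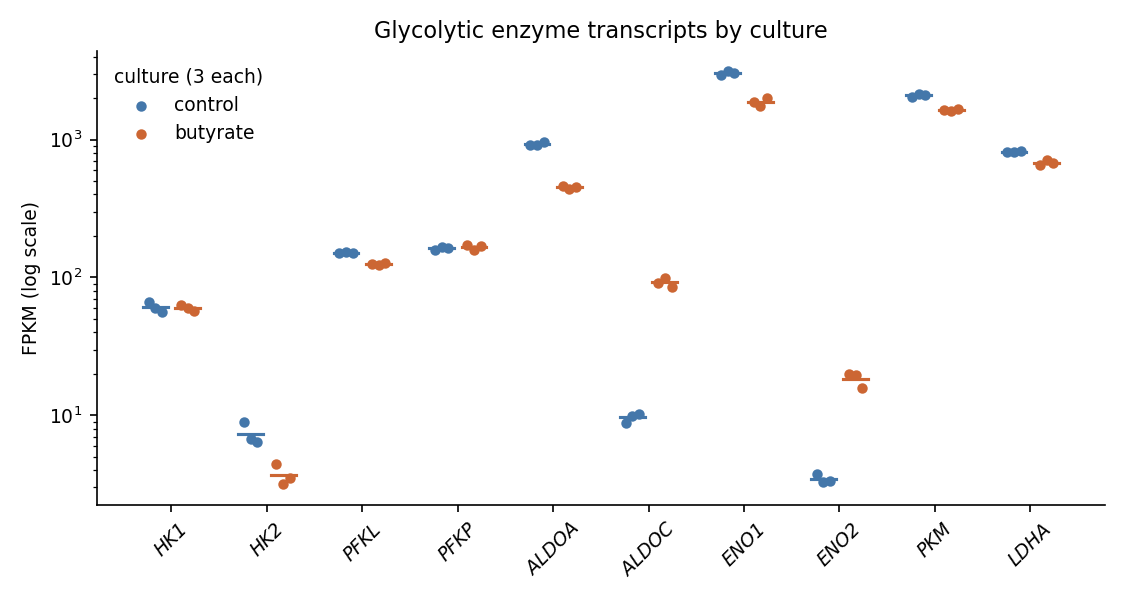
FPKM of the 10 enzymes in each culture, on a log axis, with controls and butyrate cultures as separate points and a bar at each group mean. ALDOC and ENO2 lie wholly above their controls, 6 enzymes lie wholly below, and the points of HK1 and PFKP mix.

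The control means ran from 3.47 FPKM for ENO2 to 3037 FPKM for ENO1. In descending order of control mean the genes were ENO1, PKM, ALDOA, LDHA, PFKP, PFKL, HK1, ALDOC, HK2 and ENO2. Neighbours in this order did not overlap between cultures, except ALDOC and HK2. After butyrate the order became ENO1, PKM, LDHA, ALDOA, PFKP, PFKL, ALDOC, HK1, ENO2 and HK2, with no overlap between neighbours. ALDOA thus dropped below LDHA, and ALDOC moved above HK1. The summed FPKM of the 10 genes went from 7275 ± 151 to 5100 ± 134 (SD, n = 3), or from 1.07% to 0.817% of the FPKM of all genes.

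At the first step, hexokinase traps glucose in the cell as glucose 6-phosphate. HK1 (chromosome 28, 25851519-25925057), the widely expressed isozyme, stood at 66.5, 60.5 and 56.6 FPKM in the controls and at 62.8, 60.0 and 56.7 FPKM after butyrate. The butyrate values all lay within the range of the controls. The log2 fold change was -0.03 (SE 0.07, limma adjusted p = 0.734), and its sign turned when the libraries were rescaled to equal totals (0.09), quantile normalised (0.05), or analysed without control replicate 1 (0.03) or without butyrate replicate 3 (0.0074).

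HK2 (chromosome 11, 9722667-9791764), the inducible isozyme of muscle and many growing cells, stood at 8.96, 6.77 and 6.37 FPKM in the controls and at 4.44, 3.16 and 3.51 FPKM after butyrate. Control replicate 1 was the highest of its group and butyrate replicate 1 the highest of the other, and the groups did not overlap. HK2 fell 1.99-fold, with a log2 fold change of -0.97 (SE 0.18, limma adjusted p = 0.00154). HK1 exceeded HK2, on the mean ratio over cultures, by 8.41-fold in the controls and 16.4-fold after butyrate. The log2 ratio of HK2 to HK1 went from -3.05 ± 0.15 to -3.99 ± 0.21 (SD, n = 3), a difference of -0.94 (SE 0.15, two-sided exact permutation p = 0.1). With 3 against 3 cultures 0.1 is the smallest p this test can give, and all 7 isozyme pairs compared reached it, so each was also 0.1 after Benjamini-Hochberg adjustment over the pairs. None of the pair differences below can therefore pass 0.05, although the cultures of the 2 groups were separate in every pair.

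Phosphofructokinase makes fructose 1,6-bisphosphate, the committed step of the route. PFKL (chromosome 1, 145770058-145797206), the liver-type subunit, stood at 150.0, 152.6 and 150.2 FPKM in the controls and at 124.6, 123.2 and 128.0 FPKM after butyrate. The cultures of each group lay close together and apart from the other group. PFKL fell with a log2 fold change of -0.27 (SE 0.04, limma adjusted p = 0.000479).

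PFKP (chromosome 13, 45500599-45553520), the platelet-type subunit, stood at 158.7, 166.7 and 163.0 FPKM in the controls and at 171.5, 156.9 and 169.1 FPKM after butyrate. The butyrate cultures held both the highest and the lowest of the 6 values. The log2 fold change was 0.03 (SE 0.05, limma adjusted p = 0.673). PFKP was called higher under rescaling to equal totals (0.15, limma adjusted p = 0.0273) and quantile normalisation (0.16, limma adjusted p = 0.0287), and its sign turned under median centring (-0.08). PFKP and PFKL were close to level in the controls, with a log2 ratio of 0.11 ± 0.02, which was 0.40 ± 0.06 after butyrate (SD, n = 3). The difference was 0.29 (SE 0.04, exact permutation p = 0.1). A ratio within a culture shows unequal change of the 2 subunits and not which of them moved.

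Aldolase splits fructose 1,6-bisphosphate into triose phosphates. ALDOA (chromosome 25, 26470486-26483394), the isozyme of muscle and most other tissues, stood at 906.6, 915.3 and 962.1 FPKM in the controls and at 461.8, 441.4 and 456.2 FPKM after butyrate. No butyrate culture came near the lowest control. ALDOA fell 2.05-fold, with a log2 fold change of -1.03 (SE 0.04, limma adjusted p = 1.64e-07).

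ALDOC (chromosome 19, 20588064-20591587), the isozyme best known from brain, stood at 8.75, 9.96 and 10.3 FPKM in the controls and at 91.1, 99.6 and 85.6 FPKM after butyrate. Every butyrate culture was several times above every control. ALDOC rose 9.53-fold, from 9.66 ± 0.803 to 92.1 ± 7.04 FPKM (SD, n = 3). Its log2 fold change was 3.24 (SE 0.09, limma adjusted p = 4.05e-08). This was higher than the change of 97.8% of all tested genes. ALDOA exceeded ALDOC by 96.4-fold in the controls and by 4.94-fold after butyrate. The log2 ratio of ALDOC to ALDOA rose by 4.27 (SE 0.10, exact permutation p = 0.1), the widest shift among the 7 pairs. ALDOC made up 1.03% ± 0.0643 of the aldolase FPKM, summed over the aldolase genes, in the controls and 16.9% ± 1.35 after butyrate (SD, n = 3). The summed aldolase level still went from 938.3 to 545.5 FPKM, so the gain of ALDOC was smaller than the loss of ALDOA.

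Enolase makes phosphoenolpyruvate. ENO1 (chromosome 16, 45401684-45416470), the widely expressed isozyme and the most abundant of the 10 genes, stood at 2945, 3121 and 3046 FPKM in the controls and at 1878, 1757 and 1987 FPKM after butyrate. The groups were separated by more than the range within either. ENO1 fell 1.62-fold, with a log2 fold change of -0.70 (SE 0.05, limma adjusted p = 4.21e-06).

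ENO2 (chromosome 5, 103899877-103908036), the isozyme of neurons and neuroendocrine cells, stood at 3.77, 3.28 and 3.34 FPKM in the controls and at 19.9, 19.7 and 15.7 FPKM after butyrate. Butyrate replicate 3 was the lowest of its group and was still above every control. ENO2 rose 5.32-fold, from 3.47 ± 0.266 to 18.4 ± 2.38 FPKM (SD, n = 3). Its log2 fold change was 2.37 (SE 0.12, limma adjusted p = 1.01e-06), which was higher than the change of 94.7% of tested genes. ENO1 exceeded ENO2 by 881.0-fold in the controls and by 103.5-fold after butyrate. The log2 ratio of ENO2 to ENO1 rose by 3.07 (SE 0.18, exact permutation p = 0.1). ENO2 nevertheless remained a trace of the enolase FPKM, at 0.0889% in the controls and 0.864% after butyrate.

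ENO3, the muscle isozyme and not among the 10 genes, was the second most abundant enolase in the controls. It stood at 828.4, 874.8 and 893.0 FPKM in the controls and at 258.6, 221.9 and 288.6 FPKM after butyrate. ENO3 fell 3.38-fold, with a log2 fold change of -1.76 (SE 0.09, limma adjusted p = 6.38e-07). Its share of the enolase FPKM went from 22.2% to 11.9% while that of ENO1 went from 77.8% to 87.2%. The log2 ratio of ENO3 to ENO1 fell by 1.06 (SE 0.06, exact permutation p = 0.1), a comparison that was chosen after the values were seen. Thus the isozyme known from muscle lost share at this step, the one known from neurons gained it, and ENO1 supplied most of the step in both groups.

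**Figure D2:**
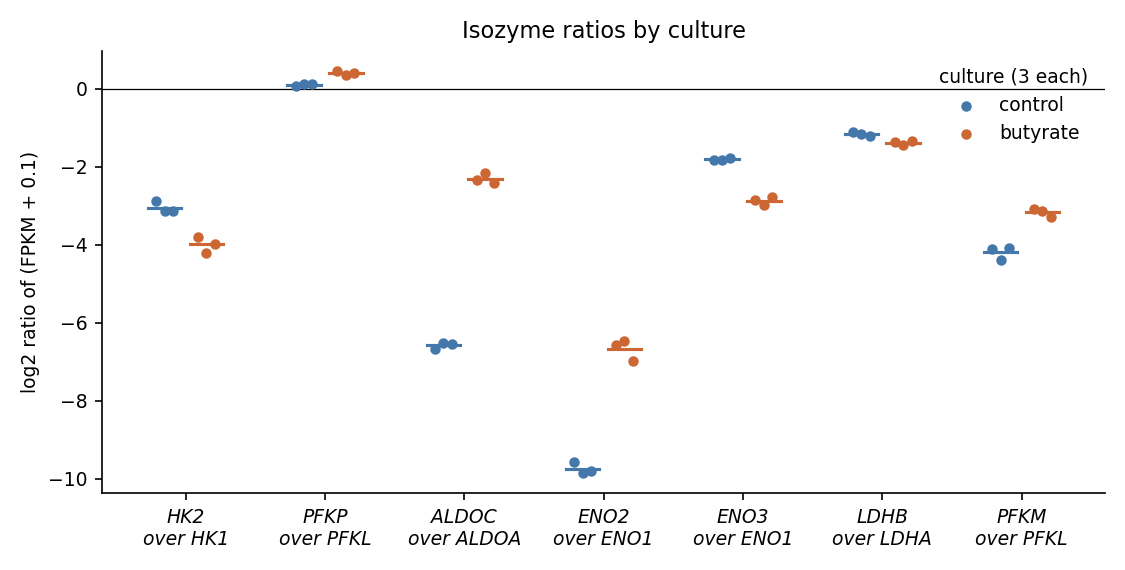
Log2 ratio of each of 7 isozyme pairs in every culture, controls and butyrate cultures as separate points. ALDOC to ALDOA and ENO2 to ENO1 shifted upward by 4.27 and 3.07, and the cultures of the 2 groups do not overlap in any pair.

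**Figure D3:**
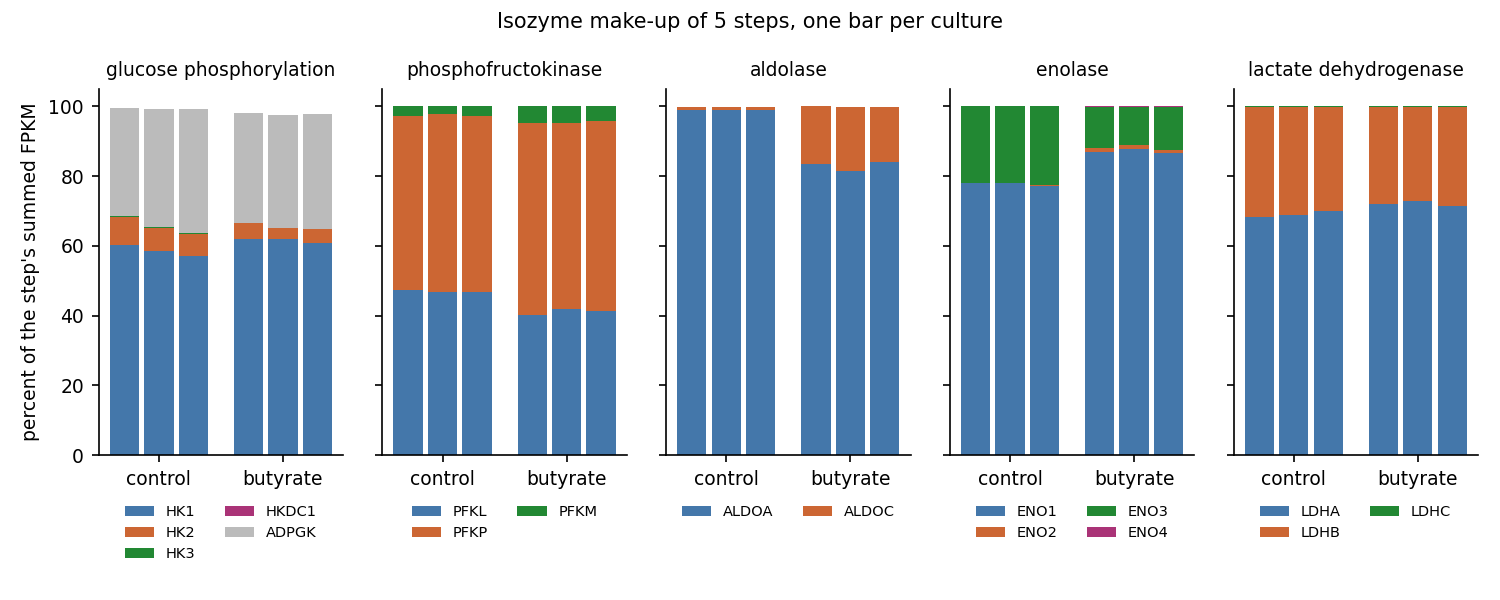
Share of each isozyme in the summed FPKM of its step, in percent, with 1 stacked bar per culture, for the 5 steps with several abundant isozymes. Genes not drawn make up the rest of each bar to 100%. On group means ALDOC goes from 1.03% to 16.9% of aldolase and ENO3 from 22.2% to 11.9% of enolase.

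Markers of other cell types that carry these isozymes were measured in the same cultures. The 9 neuron markers summed to 117.0 to 125.0 FPKM in the controls and 265.1 to 290.7 FPKM after butyrate. Of these, TUBB3, NEFH, RBFOX3, MAP2 and SNAP25 passed the filter on low values, RBFOX3 only through the butyrate cultures. All 5 were called higher, while 4 markers were too low to be tested. Among all tested genes 32.5% were called higher and 25.9% lower. Nearly all of that sum was the tubulin gene TUBB3, at 112.5 to 120.3 and then 246.6 to 268.2 FPKM. Among the 4 untested neuron markers, GAP43 was listed at 0 in all cultures, and SYP, NEFL and NEFM were at 0 in all controls and at 0 to 0.155 FPKM after butyrate. The neurofilament gene NEFH was at 2.31 to 3.75 FPKM in the controls and 11.2 to 14.6 FPKM after butyrate. RBFOX3 was at 0 to 0.08 FPKM in the controls and 0.92 to 1.21 FPKM after butyrate. The 7 muscle markers summed to 115.3 to 120.7 FPKM in the controls and 16.01 to 17.8 FPKM after butyrate. Of the 4 tested, 2 were called higher, among them CKM, which passed the filter only through the butyrate cultures, and 2 lower. Nearly all of the control sum was the skeletal actin gene ACTA1, and MYOG was listed at 0 throughout. The part of either marker list in the ALDOC, ENO2 and ENO3 values was not tested.

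Pyruvate kinase makes pyruvate and ATP in the last step to pyruvate. PKM (chromosome 10, 18965981-18992644) stood at 2046, 2151 and 2096 FPKM in the controls and at 1632, 1602 and 1660 FPKM after butyrate. The groups were well apart. PKM fell 1.29-fold, with a log2 fold change of -0.36 (SE 0.03, limma adjusted p = 2.20e-05). PKM encodes the M1 and M2 forms by alternative splicing, and a value per gene cannot tell them apart.

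Lactate dehydrogenase converts pyruvate to lactate. LDHA (chromosome 29, 26543855-26555892), the subunit common in muscle and glycolytic cells, stood at 811.0, 808.3 and 830.5 FPKM in the controls and at 651.7, 705.2 and 673.9 FPKM after butyrate. The groups did not overlap. LDHA fell 1.21-fold, with a log2 fold change of -0.27 (SE 0.04, limma adjusted p = 0.00035). Under quantile normalisation this call was lost and the sign turned (0.02, limma adjusted p = 0.673). LDHB, the subunit common in heart, was at 373.8, 365.1 and 357.5 FPKM in the controls and 251.3, 258.3 and 266.2 FPKM after butyrate. LDHB fell with a log2 fold change of -0.50 (SE 0.04, limma adjusted p = 1.00e-05). LDHA exceeded LDHB by 2.24-fold in the controls and 2.62-fold after butyrate, and the log2 ratio of LDHB to LDHA fell by 0.23 (SE 0.04, exact permutation p = 0.1, a pair chosen after the values were seen).

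The scaling of the libraries moves small changes. The median log2 fold change of all tested genes was 0.10 as deposited, 0.24 after rescaling each library to equal totals, -0.05 after quantile normalisation and 0.00 after median centring. Relative to the median gene, as median centring gives it, the log2 fold changes were -0.37 for PFKL and LDHA, -0.47 for PKM, -0.80 for ENO1, -1.07 for HK2, -1.14 for ALDOA, 2.27 for ENO2 and 3.14 for ALDOC. The calls of ALDOC, ENO2, HK2, PFKL, ALDOA, ENO1 and PKM at the adjusted p under 0.05, and their directions, were the same under each of these scalings.

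The other steps of the pathway were read from a list of 20 further genes. Of the 17 tested, 6 were called higher and 9 lower, against 32.5% and 25.9% of all tested genes, and 0 passed the stricter rule. The median log2 fold change of the 17 was -0.47. GPI, which interconverts glucose and fructose 6-phosphate, fell from 336.6 ± 8.99 to 158.3 ± 1.70 FPKM, with a log2 fold change of -1.09 (SE 0.04, limma adjusted p = 1.49e-07). The triose phosphate genes TPI1 and GAPDH fell from 819.2 ± 18.9 to 524.3 ± 2.77 FPKM and from 2115 ± 51.2 to 1528 ± 74.6 FPKM (SD, n = 3). Their log2 fold changes were -0.64 (limma adjusted p = 9.17e-07) and -0.47 (limma adjusted p = 1.97e-05).

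The 2 steps between GAPDH and enolase showed wider changes. PGK1, which makes ATP from 1,3-bisphosphoglycerate, fell from 504.7 ± 7.33 to 210.2 ± 13.3 FPKM, with a log2 fold change of -1.26 (SE 0.05, limma adjusted p = 2.06e-07). Its position overlaps that of TAF9B, and how reads were split between the overlapping rows is not stated. The same limit holds for HK1 with TACR2 and PFKP with LOC101904520. It also holds for ENO4 with HSPA12A, HK3 with UNC5A and GAPDHS with LOC100847573. PGAM1, the mutase that moves the phosphate group, fell from 522.5 ± 17.4 to 194.7 ± 3.27 FPKM, with a log2 fold change of -1.42 (SE 0.04, limma adjusted p = 5.01e-08). PGAM1 and ENO3 had the most negative values of the 27 tested glycolytic genes.

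At the entry steps, ADPGK, a kinase that phosphorylates glucose with ADP, fell from 34.8 to 31.3 FPKM (log2 fold change -0.15, SE 0.06, limma adjusted p = 0.0442). PFKM, the muscle-type phosphofructokinase, rose from 8.18 ± 0.869 to 13.9 ± 0.793 FPKM, with a log2 fold change of 0.76 (SE 0.11, limma adjusted p = 0.000323). It made up 2.54% of phosphofructokinase FPKM in the controls and 4.55% after butyrate. The log2 ratio of PFKM to PFKL rose by 1.03 (SE 0.12, exact permutation p = 0.1, a pair chosen after the values were seen). The other tested genes of the list lay below 10 FPKM. Among them PKLR, LDHC, ENO4 and GAPDHS were called higher, HK3 was called lower and BPGM was not called. GAPDHS was listed at or next to 0 in all controls and at 0.399, 0.910 and 0.605 FPKM after butyrate, so it passed the filter only through the butyrate cultures. PGK2 was listed at 0 in all cultures, and HKDC1 and PGAM2 were too low to be tested.

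**Figure D4:**
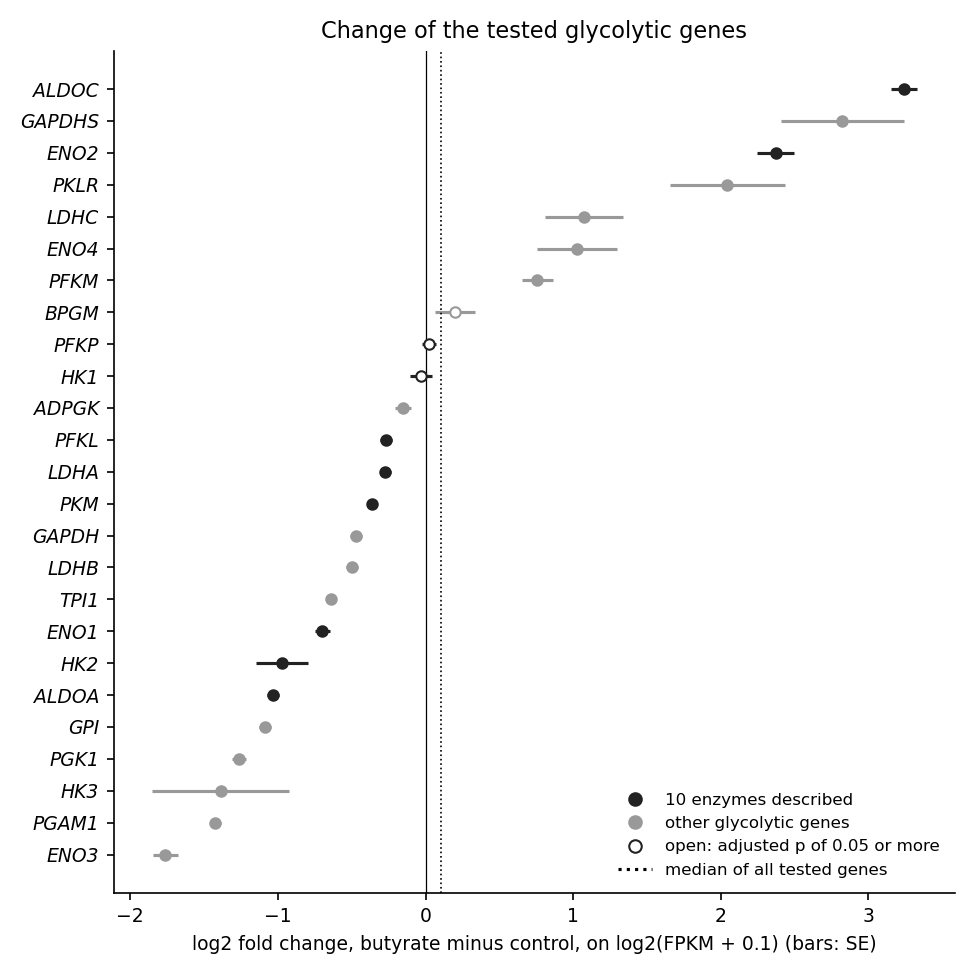
Log2 fold change, butyrate minus control on log2(FPKM + 0.1), of the tested glycolytic genes reported here, sorted by their change, with standard error bars and a line at the median of all tested genes (0.10). Filled points are called by limma at an adjusted p under 0.05, black points are the 10 enzymes, and ALDOC and ENO3 mark the ends of the range at 3.24 and -1.76. GAPDHS has controls at 0, so its fitted value is no measure of size.

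Most of the abundant genes among the 27 fell. Of the 13 with a mean of at least 100 FPKM over the 6 cultures, 12 were called lower and 0 higher, and PFKP was not called. Among all 1198 tested genes of that level, 56.8% were called lower and 28.3% higher. ALDOC, ENO2 and PFKM, which rose, had control means below 10 FPKM. The summed FPKM of each step was lower after butyrate at 11 of 11 steps, on group means, as deposited. The summed FPKM of all genes was itself lower after butyrate, at 624273 against 679874, and with the libraries at equal totals 9 of 11 steps were lower, while glucose phosphorylation and phosphofructokinase were at 0.02 and 0.04 on the log2 scale. The deposited sums of the groups overlapped for glucose phosphorylation alone among the steps. Their log2 differences were -0.10 for glucose phosphorylation, -0.08 for phosphofructokinase, -0.78 for aldolase, -0.86 for enolase, -0.36 for pyruvate kinase and -0.34 for lactate dehydrogenase, with the single-isozyme steps as above. All glycolytic genes together made up 1.89% ± 0.0347 of the FPKM of all genes in the controls and 1.33% ± 0.0334 after butyrate (SD, n = 3).

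Some of these genes are near neighbours in the genome. ENO2 and TPI1 are 34.4 kb apart on chromosome 5, and ENO2 rose while TPI1 fell. LDHC and LDHA are 3.93 kb apart on chromosome 29, where LDHC went from 0.803 to 1.84 FPKM and LDHA fell, and LDHC also overlaps TSG101. The genes flanking ALDOC moved in unlike ways. SPAG5, 682 bp away, fell from 15.0 to 0.469 FPKM (log2 fold change -4.80, limma adjusted p = 1.50e-06), and PIGS, 2297 bp away on the other side, went from 17.8 to 27.6 FPKM (log2 fold change 0.64, limma adjusted p = 0.00193). LRRC23, 332 bp from ENO2, went from 0.0294 to 0.558 FPKM and passed the filter only through the butyrate cultures. ATN1, 6055 bp from ENO2 on the other side, fell from 1.63 to 0.908 FPKM (log2 fold change -0.78, limma adjusted p = 0.0129). These neighbours were picked for mention after their values were seen.

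The carriers that move glucose in and lactate out were read from a list of 14 genes. Of 11 tested, 5 were called higher and 1 lower, against 32.5% and 25.9% of all tested genes. The median log2 fold change of the list was 0.58. Without butyrate replicate 3, 6 were called higher and 2 lower, and under median centring 4 higher and 2 lower. With no filter on low values, or with a mean of at least 1 FPKM required, 2 were called lower. SLC16A3, the MCT4 lactate exporter, was at 0.438 to 1.55 FPKM in the controls and 19.3 to 21.0 FPKM after butyrate. It rose with a log2 fold change of 4.28 (SE 0.36, limma adjusted p = 1.39e-05), and it was the 1 gene of the list that the stricter rule called. SLC16A1, the MCT1 carrier of lactate and short-chain fatty acids, fell from 57.6 ± 1.12 to 37.1 ± 1.37 FPKM (log2 fold change -0.64, limma adjusted p = 1.65e-05). Their shared chaperone BSG rose from 1645 ± 52.5 to 2464 ± 63.1 FPKM (log2 fold change 0.58, limma adjusted p = 2.39e-06). The glucose carrier SLC2A1 (GLUT1) rose from 166.7 ± 9.95 to 197.2 ± 8.64 FPKM (log2 fold change 0.24, limma adjusted p = 0.00535).

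Gluconeogenic enzymes, which bypass the irreversible steps in the reverse direction, were 6 in number. Of these, 4 of 4 tested were called higher, against 32.5% of all tested genes, with a median log2 fold change of 1.53. FBP1, which removes a phosphate from the product of phosphofructokinase, stood at 1.15, 1.43 and 2.47 FPKM in the controls and 28.7, 40.7 and 33.6 FPKM after butyrate. It rose with a log2 fold change of 4.32 (SE 0.25, limma adjusted p = 1.73e-06) and passed the stricter rule. FBP2 rose from 1.11 to 5.93 FPKM, PCK2 from 29.6 to 47.7 FPKM and G6PC3 from 57.0 to 72.3 FPKM. PCK1, the cytosolic phosphoenolpyruvate carboxykinase, was listed at 0 in all cultures. G6PC was at 0.0195 FPKM in control replicate 1 and at 0 in every other culture, so neither gene was tested.

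The bifunctional PFKFB enzymes and TIGAR set the level of fructose 2,6-bisphosphate, the main activator of phosphofructokinase. Of 4 tested, 1 was called higher and 1 lower, against 32.5% and 25.9% of all tested genes. PFKFB4 rose from 3.06 to 7.81 FPKM (log2 fold change 1.33, limma adjusted p = 9.57e-05), and TIGAR fell from 15.2 to 11.1 FPKM (log2 fold change -0.44, limma adjusted p = 0.0163). Under rescaling to equal totals 0 genes of the list were called lower and 2 higher, and with the replicate block 2 were called higher. Without control replicate 3, butyrate replicate 1 or butyrate replicate 3, 0 genes of the list were called lower, and without control replicate 1, 2 were called higher. PFKFB3 was at 11.2 and 14.1 FPKM (limma adjusted p = 0.11) and PFKFB2 at 1.13 and 1.28 FPKM (limma adjusted p = 0.653).

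Pyruvate that is not made into lactate enters mitochondria through the MPC1 and MPC2 carrier and is taken up by pyruvate dehydrogenase or pyruvate carboxylase. Of 15 genes in this group, all tested, 5 were called higher and 6 lower, against 32.5% and 25.9% of all tested genes. The median log2 fold change of the group was -0.14. PDK4 of this group passed the filter only through the butyrate cultures. MPC1 fell from 141.4 ± 7.17 to 68.4 ± 4.22 FPKM (log2 fold change -1.05, limma adjusted p = 1.76e-06), and its partner MPC2 was at 142.9 ± 6.36 and 149.9 ± 9.76 FPKM (limma adjusted p = 0.347). PDHB, a subunit of pyruvate dehydrogenase, fell from 93.5 ± 3.85 to 33.2 ± 3.84 FPKM (log2 fold change -1.50, limma adjusted p = 1.52e-06). PC, pyruvate carboxylase, rose from 58.7 ± 4.77 to 159.3 ± 2.33 FPKM (log2 fold change 1.44, limma adjusted p = 3.80e-07).

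Known transcriptional regulators of glycolytic genes were also measured as mRNA. Of 8 tested, 3 were called higher and 2 lower, shares close to the 32.5% and 25.9% of all tested genes. HIF1A, the oxygen-regulated factor that activates many glycolytic genes, rose from 31.4 to 45.4 FPKM (log2 fold change 0.53, limma adjusted p = 0.00026). Its relative EPAS1 had means of 0.0695 FPKM in the controls and 0.683 FPKM after butyrate, so it passed the filter only through the butyrate cultures. MYC, which activates LDHA and other genes of the pathway, fell from 95.3 to 58.8 FPKM (log2 fold change -0.71, limma adjusted p = 0.00046). Of 14 HIF target genes outside glycolysis, all tested, 8 were called higher and 2 lower, with a median log2 fold change of 0.79. MXI1 rose from 2.03 to 5.14 FPKM, P4HA2 from 95.4 to 168.2 FPKM and DDIT4 from 71.7 to 140.3 FPKM. The mitophagy gene BNIP3 fell from 32.2 to 18.9 FPKM, while its relative BNIP3L rose from 38.0 to 87.6 FPKM.

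**Figure D5:**
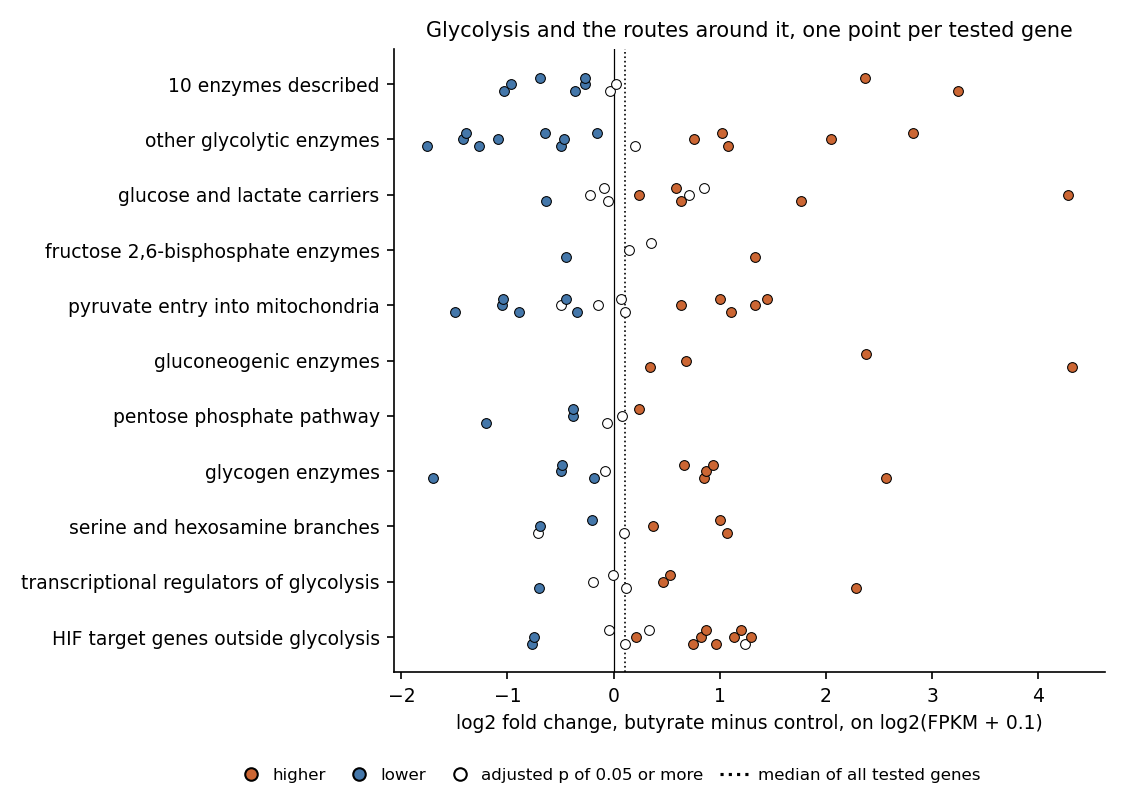
Log2 fold change of the tested genes reported here in 11 lists, from the 10 enzymes to the routes around them, with coloured points called by limma at an adjusted p under 0.05 and a dotted line at the median of all tested genes (0.10). FBP1 and SLC16A3 lie farthest to the right, at 4.32 and 4.28, and the gluconeogenic list has all 4 points above zero.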

How the data were processed

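RNA from 6 REPC cultures was sequenced by the study as paired reads from TruSeq libraries. Per the labels and methods, the authors trimmed reads with Trim Galore 0.4.1, aligned them with STAR, kept uniquely mapped reads and made the deposited FPKM, with 95% intervals, with Cufflinks against UMD3.1; the STAR and Cufflinks versions and the use of strand are not given in the sources used here. Reads shared by near-identical copies are dropped by this choice. Starts in the deposited tables count from 0, and 1 was added. Chromosome names were taken from the position tables of the study.

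Groups came from the labels, with 3 cultures each. Values were tested with limma 3.58.1 (R 4.3.3, mean-variance trend) on log2(FPKM + 0.1) for 15813 genes with a mean of at least 0.1 FPKM, after leaving out 2 genes with a failed estimate. Isozyme pairs were compared per culture by an exact permutation test over 20 divisions (scipy 1.17.1), 4 pairs as planned and 3 added. The fit was checked on simulated data. Of 200 genes given a log2 change of 1, it called 50%, or 69.2% of those of at least 1 FPKM. Of its calls 5.66% were false. Only these 200 of 15813 genes were changed there, whereas 58.4% of the tested genes were called in the real data. These rates therefore belong to the simulated setting and not to the real fit. A gene that was not called can still have changed. Members and lists were chosen with earlier results of these data known. Named were the 10 members, other glycolytic genes of at least 10 FPKM, and from each other list up to 4 genes: the largest rise and fall among calls, then the most abundant. Any others were chosen after their values were seen. Alternatives were other pseudocounts, filters and scalings, no trend, the replicate number as a block, and leaving out each culture. Protein and promoter sequences were not analysed here, and single values of some listed genes are not reported here, although the list counts and step sums include them.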

Additional observations from a re-analysis of the deposited data

How the results depend on the processing

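Each enzyme was fitted under 15 alternatives. Of the 10, 7 kept their call and direction in all of them, the exceptions being HK1, PFKP and LDHA. HK1, never called, turned to 0.0921 under rescaling to equal totals and 0.0529 under quantile normalisation, and ranged from -0.0856 to 0.0303 when 1 culture was left out, with 0.0074 without butyrate replicate 3. LDHA went to 0.0189 under quantile normalisation. PFKP went to -0.0773 under median centring, and was called higher at 0.15 and 0.16 under the other 2 scalings. The counts of enzymes called were 2 to 3 higher and 5 to 6 lower at the adjusted p under 0.05, and 0 were lower under the stricter rule. Among the other glycolytic enzymes, 3 in place of 6 were called higher when a mean of at least 1 FPKM was required, since fewer were tested. Under quantile normalisation 4 of them were called higher. Their count lower was 9 in the main fit and 7 to 9 over the alternatives. It was 7 without control replicate 1, control replicate 2 or butyrate replicate 2. Quantile normalisation moved the log2 ratio differences to 4.08 for ALDOC to ALDOA, -1.15 for HK2 to HK1, -0.79 for ENO3 to ENO1, -0.30 for LDHB to LDHA and 0.86 for PFKM to PFKL, and a pseudocount of 1 moved ENO2 to ENO1 to 2.81. The cause was not tested. With the replicate number as a block, 2 enzymes were called higher and 6 lower, as without it, and 4956 and 4015 of all genes. The deviations of same-numbered cultures from their group means correlated at 0.0228, -0.00431 and 0.00177. The labels do not say whether these cultures were paired, and the correlations cannot settle it. The relative precision is lowest for ENO2, HK2 and ALDOC, and low genes near 0.1 FPKM depend on the pseudocount.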

Other observations

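The side routes of glycolysis are given by their counts, beside 32.5% of all tested genes called higher and 25.9% called lower. Of 10 tested glycogen enzymes, 5 were called higher and 4 lower, with a median log2 fold change of 0.29. PYGL, the glycogen phosphorylase of liver, rose from 93.1 to 170.3 FPKM (log2 fold change 0.87, limma adjusted p = 1.9e-06), and its muscle relative PYGM rose from 0.142 to 1.22 FPKM (log2 fold change 2.57). GBE1, the branching enzyme of glycogen synthesis, fell from 16.5 to 5.01 FPKM (log2 fold change -1.70, limma adjusted p = 1.6e-06). PGM1, which links glucose 1-phosphate to glucose 6-phosphate, fell from 63.6 to 56.0 FPKM (log2 fold change -0.19, limma adjusted p = 0.022).

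Of 7 tested pentose phosphate genes, 2 were called higher and 3 lower. The count higher was 1 with the replicate block, no trend or no filter on low values. It was also 1 without control replicate 1, butyrate replicate 1 or butyrate replicate 2. Rescaling to equal totals gave 3 higher and 2 lower, quantile normalisation 3 and 3, and median centring 1 and 4. The count lower was 2 to 4 over the alternatives. TKT, transketolase, rose from 279.5 to 330.9 FPKM (log2 fold change 0.24, limma adjusted p = 0.0025). RPIA, the ribose phosphate isomerase, fell from 25.0 to 10.8 FPKM (log2 fold change -1.20, limma adjusted p = 5.8e-06). TALDO1, transaldolase, was at 681.8 and 722.7 FPKM (limma adjusted p = 0.15).

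Of 7 genes in the serine and hexosamine branches, 3 were called higher and 2 lower. The count lower was 1 without control replicate 1 or 2, or butyrate replicate 1 or 2. It was also 1 with rescaling to equal totals, no filter on low values or no trend. Over the alternatives 2 to 4 were called higher. GFPT2, an entry enzyme of hexosamine synthesis, rose from 12.8 to 26.9 FPKM (log2 fold change 1.07). SHMT2, the mitochondrial serine hydroxymethyltransferase, fell from 108.1 to 66.9 FPKM (log2 fold change -0.69). PHGDH, the first enzyme of serine synthesis, was at 198.6 and 212.5 FPKM (limma adjusted p = 0.068), and PSPH, the last, fell from 99.6 to 86.9 FPKM (log2 fold change -0.20, limma adjusted p = 0.038). PSAT1, the enzyme between them, rose from 58.5 to 117.0 FPKM (log2 fold change 1.00, limma adjusted p = 3.9e-06).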
